A study of Homo sapiens with 10 samples.

Results

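Complement is a cascade of plasma and cell-surface proteins, and the 9 genes described here encode some of its components and regulators. They are C1R, C1S, C3, CFB, C5, CFI, CD46, CD55 and CD59, chosen by symbol from the 46427 genes of the deposited table, and all 9 were found there. Poly(A) RNA of 10 cultures of the established human lung cancer cell lines H460 and A549 had been sequenced to compare cells that survive an anticancer drug, or that grow in suspension, with the cells they came from. Of H460 there were 3 parental libraries in two-dimensional (2D) culture, 1 cisplatin-resistant (CR), 2 paclitaxel-resistant (PR), 1 doxorubicin-resistant (DR) and 1 tumor spheroid (TS) library. Of A549 there were 1 2D library and 1 TS library. CR cells had survived cisplatin at 4 uM, PR cells paclitaxel at 5 nM and DR cells doxorubicin at 0.5 uM. Each drug was present for 3 days, 3 days in fresh medium followed, and the cells that attached after replating were collected, so the drug-resistant groups are short-term survivors and not selected clones. TS cells, which the sample labels name CTC, grew on non-adherent plates with B27 and the growth factors EGF and bFGF in place of serum, while 2D cells grew with serum. Spheroid growth and the change of medium therefore cannot be told apart. The study says of its data in general that experiments were repeated, and the labels number the libraries, but neither says that libraries of a group came from separate cultures. If they did not, the spread between libraries of a group that p-values measure is only technical. Tests that took CR, PR and DR, or CR and DR, as 1 group also hold differences between drugs in their spread. The joint test of TS against 2D cells and of A549 against H460 also holds differences of the spheroid effect between the lines.

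Between 59499787 and 89541774 reads were counted on genes in each library. Of 5 epithelial markers, KRT8, KRT18 and KRT19 had an FPKM (fragments per kilobase, a level scaled to transcript length and library size) of at least 1 in every library. In the H460 libraries EPCAM was at most 0.114 FPKM and CDH1 at most 0.0266 FPKM. Of the leukocyte markers, PTPRC and CD3E were at most 0.157 and 0.0582 FPKM, but CD68 reached 69.8 FPKM and CD14 17.1 FPKM, both above 1 FPKM in every library, and LYZ was at 37.7 FPKM in A549 TS cells. Of the hepatocyte markers, ALB was at most 0.167 FPKM, but A549 TS cells had SERPINA1 at 181 FPKM and FGB at 23.4 FPKM. The library names in the labels come with or without a hyphen in both parental and drug-resistant cells, and differences within each form are given beside the results. Of these libraries, parental replicates 1 and 3 and PR replicate 1 have names without a hyphen. Parental replicate 2, PR replicate 2, CR and DR have names with it. Each within-form difference thus rests on 1 library in either the parental or the drug-resistant group, and CR and DR occur in only 1 form. In whole cultures, fewer cells that express a gene and less RNA of it per cell cannot be told apart.

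The classical pathway starts with C1, in which the protease C1r activates the protease C1s, and C1s then cleaves C4 and C2. All pathways meet at C3, whose cleavage tags a surface and releases a small signalling fragment. Factor B, encoded by CFB, supplies the protease of the alternative pathway's C3 convertase, and cleavage of C5 starts the membrane attack complex. Host cells carry their own brakes: CD55 (decay-accelerating factor) takes the convertases apart, CD46 (membrane cofactor protein) helps factor I, encoded by CFI, to degrade the deposited fragments, and CD59 blocks the last step of the membrane attack complex. Most soluble components in plasma come from the liver, but epithelial cells make some of them locally, and CD46, CD55 and CD59 are carried by nearly all cells.

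In the RefSeq annotation of GRCh38.p14, C1R (chr12:7080219-7092445) and C1S (chr12:7060718-7071032) are neighbours, with 9.19 kb between them. CD55 (chr1:207321678-207360966) and CD46 (chr1:207752038-207795516) lie 391 kb apart. C3 is at chr19:6677704-6720650, CFB at chr6:31946095-31952084, C5 at chr9:120952335-121074865, CFI at chr4:109730982-109801999 and CD59 at chr11:33703010-33736479. RefSeq promoter sequences were matched for 7 of the 9 genes (C1R, C5, CD46, CD55, CD59, CFB and CFI), with 13 start sites in all. The 250 bases before the outermost start of 4 genes are printed: CFB, C1R and CD59, whose windows held a match to the motifs searched, and CD55, which is set beside CD59 because CD59 rose in drug-resistant cells and CD55 did not pass that test. The sequences are in gene orientation on GRCh38.p14, CFB and CD55 from the plus strand and C1R and CD59 from the minus strand, and capitals mark matches to the motifs described after them.
CFB (chr6:31945845-31946094): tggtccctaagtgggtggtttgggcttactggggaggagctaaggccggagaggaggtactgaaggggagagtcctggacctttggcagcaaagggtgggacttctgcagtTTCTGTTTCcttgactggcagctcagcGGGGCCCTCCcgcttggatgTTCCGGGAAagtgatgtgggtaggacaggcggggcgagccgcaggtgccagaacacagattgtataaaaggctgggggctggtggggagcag
C1R (chr12:7092446-7092695): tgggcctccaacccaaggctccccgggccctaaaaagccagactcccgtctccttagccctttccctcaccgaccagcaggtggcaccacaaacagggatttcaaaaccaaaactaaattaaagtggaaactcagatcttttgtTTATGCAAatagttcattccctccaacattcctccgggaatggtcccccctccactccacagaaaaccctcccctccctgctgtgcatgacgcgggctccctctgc
CD59 (chr11:33736480-33736729): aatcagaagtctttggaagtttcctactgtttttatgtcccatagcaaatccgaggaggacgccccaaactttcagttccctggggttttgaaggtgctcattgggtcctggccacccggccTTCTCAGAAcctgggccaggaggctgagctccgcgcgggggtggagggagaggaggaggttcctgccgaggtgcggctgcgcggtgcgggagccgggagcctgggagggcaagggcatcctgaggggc
CD55 (chr1:207321428-207321677): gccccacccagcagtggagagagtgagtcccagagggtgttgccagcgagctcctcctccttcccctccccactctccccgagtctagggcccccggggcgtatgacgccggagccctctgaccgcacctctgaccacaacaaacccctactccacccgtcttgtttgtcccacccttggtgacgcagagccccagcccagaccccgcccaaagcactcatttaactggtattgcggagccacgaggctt

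The promoters were searched on both strands for 5 motifs: the core of the interferon-stimulated response element (GAAANNGAA), the gamma-activated site (TTCNNNGAA), a C/EBP motif (TTGCNNAA), AP-1 (TGANTCA) and the NF-kappaB consensus. The CFB window held a match to the interferon-stimulated element 139 bases before the start, to NF-kappaB 112 bases before it and to the gamma-activated site 92 bases before it, and these did not overlap. Over all 35116 promoter windows of the same length, these motifs were found in 6.88%, 9.96% and 6.57%. The C1R window held a C/EBP match 106 bases before the start, on the strand opposite to the one printed, a motif found in 9.05% of all windows. A further C1R start held a gamma-activated site match 86 bases and a C/EBP match 167 bases before it. The CD59 window held a gamma-activated site match 128 bases before the start, and further CD59 starts held C/EBP and AP-1 matches, the latter found in 6.57% of all windows. In the CD55, CD46, C5 and CFI windows these letters did not occur. A match is a description of the sequence and not evidence of binding.

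The membrane regulators were the most abundant of the 9 genes in H460 2D cells, and the soluble components were lower. In parental replicates 1, 2 and 3, CD55 stood at 111, 187 and 104 FPKM, CD46 at 61.0, 80.6 and 63.8 FPKM, and CD59 at 11.6, 15.7 and 11.6 FPKM. C1S followed at 7.04, 6.06 and 6.78 FPKM. This order, CD55 over CD46 over CD59 over C1S, was the same in the 3 parental libraries, the CR library and both PR libraries. C3 and C1R exchanged places between parental libraries and their levels overlapped, at 2.76, 0.445 and 1.35 FPKM for C3 against 1.00, 1.53 and 2.50 FPKM for C1R. CFB, C5 and CFI were at or near 0 in parental cells, with at most 3, 19 and 0 reads.

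**Figure D1:**
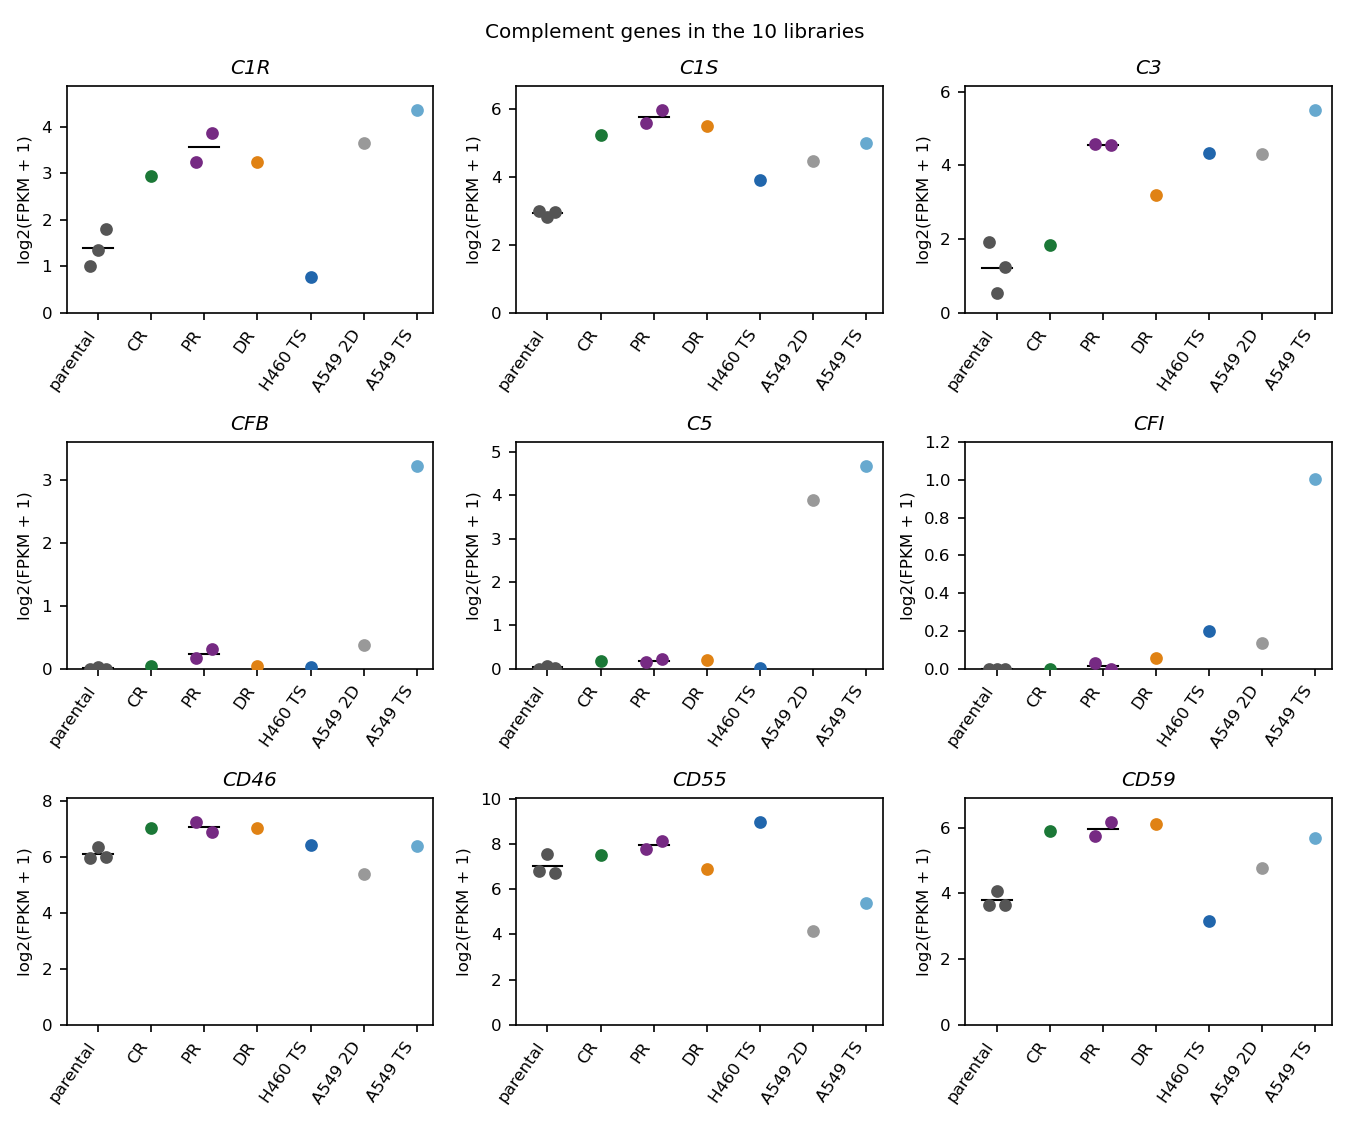
Levels of the 9 complement genes on the log2(FPKM + 1) scale (y axis) in each library, by group (x axis). Each point is 1 library, and bars mark the mean of the 3 parental and of the 2 PR libraries. C1S and CD59 stood higher in all 4 drug-resistant libraries than in the parental ones, C5 was near 0 in H460 and reached 24.5 FPKM in A549, and CD55 peaked at 498 FPKM in H460 TS cells.

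The first comparison asked how these genes differed between cells that survived a drug and parental cells. Both classical pathway proteases, C3 and the regulators CD59 and CD46 were higher in drug-resistant H460 cells, by between 1.81-fold for CD46 and 8.10-fold for C3, while CD55 did not pass the test. The edgeR quasi-likelihood test of 4 drug-resistant against 3 parental libraries called 3397 of 18398 genes higher, which is 18.5%, and 2823 lower. CFB and CFI were too low to be tested, and C5 passed the filter on low counts only through its drug-resistant libraries. Without C5, 5 of the 6 other members tested rose and none fell, and 4 of these 6 had every drug-resistant library above every parental one, against 25.8% of all genes tested. The median log2 fold change was 2.24 over these 6 members and 0.06 over all genes.

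C1S, the protease that cleaves C4 and C2, gave the clearest separation. It stood at 36.5 FPKM in CR cells, 46.4 and 61.0 FPKM in the PR pair and 44.1 FPKM in DR cells. All 4 values were above the parental maximum of 7.04 FPKM, and the parental libraries varied little among themselves. The log2 fold change was 2.70 (SE 0.203, 95% interval 2.25 to 3.15, adjusted p = 9.42e-05), or 6.48-fold. Within library name forms the difference on the log2(FPKM + 1) scale was 2.58 for names without a hyphen and 2.74 for names with it.

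C1R, which activates C1s, was at 6.69 FPKM in CR, 8.52 and 13.6 FPKM in PR and 8.42 FPKM in DR cells. The groups did not overlap, although the parental libraries themselves ranged from 1.00 to 2.50 FPKM. Its log2 fold change was 2.32 (SE 0.343, adjusted p = 0.000964), with within-form differences of 1.85 and 2.01. The ratio of C1S to C1R was 5.45 in CR, 5.45 and 4.48 in PR and 5.24 in DR cells. All of these lay within the parental ratios of 7.01, 3.95 and 2.71.

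C3 is the component on which all pathways converge. CR cells had 2.61 FPKM, PR cells 22.8 and 22.4 FPKM and DR cells 8.16 FPKM. The CR value lay among the parental ones, the DR value above all of them, and the PR values were close to each other and highest. The log2 fold change over all drugs was 3.02 (SE 0.757, adjusted p = 0.0126), and without parental replicate 3 it was 2.94 with an adjusted p of 0.052, which missed the threshold of 0.05. The size of the C3 change depended on the fit: the log2 fold change was 2.25 when each drug was given its own mean, 3.90 with the name form as a covariate, 2.55 without parental replicate 2 and 3.73 without parental replicate 1. The within-form differences were 3.00 for names without a hyphen and 2.67 for names with it. The second was taken against parental replicate 2 alone, the lowest parental library for C3 at 0.445 FPKM.

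CD59, which blocks the membrane attack complex, was at 58.3 FPKM after cisplatin, 52.3 and 70.8 FPKM after paclitaxel and 68.7 FPKM after doxorubicin. Every value was above the parental maximum of 15.7 FPKM, and the drugs overlapped with each other. Its log2 fold change was 2.16 (SE 0.21, adjusted p = 0.000196), or 4.48-fold, with within-form differences of 2.08 and 1.99. The cofactor CD46 rose less, to 131, 151, 118 and 131 FPKM in the CR, first PR, second PR and DR libraries. These also lay above all parental values, with a log2 fold change of 0.86 (SE 0.192, adjusted p = 0.00751) and within-form differences of 1.26 and 0.64.

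CD55, which takes the convertases apart, stood at 182 FPKM in CR, 216 and 280 FPKM in PR and 119 FPKM in DR cells. The groups overlapped, since parental replicate 2 was at 187 FPKM. The log2 fold change of 0.39 did not pass the test (SE 0.281, 95% interval -0.23 to 1.02, adjusted p = 0.301), and within the name forms the differences were 1.00 and -0.04. The ratio of CD55 to CD59, both anchored in the membrane by a glycolipid, was 9.61, 11.9 and 8.95 in parental replicates 1, 2 and 3. It was 3.12 in CR, 4.14 and 3.95 in PR and 1.73 in DR cells, so that all 4 ratios were below the parental ones.

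C5 remained near the limit of detection in H460. It had 0, 19 and 9 reads in parental replicates 1, 2 and 3, 60 in CR, 48 and 61 in PR and 87 in DR cells. The log2 fold change of 2.58 (SE 0.815, adjusted p = 0.0332) rested on FPKM values of at most 0.168. The adjusted p was 0.0974 without parental replicate 3, 0.0621 without PR replicate 2, 0.0578 without the DR library and 0.0664 with the name form as a covariate. CFB had 7 reads in CR, 26 and 40 in PR and 9 in DR cells. CFI had 4 reads in PR replicate 1, 9 in the DR library and 0 in the other drug-resistant libraries.

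**Figure D2:**
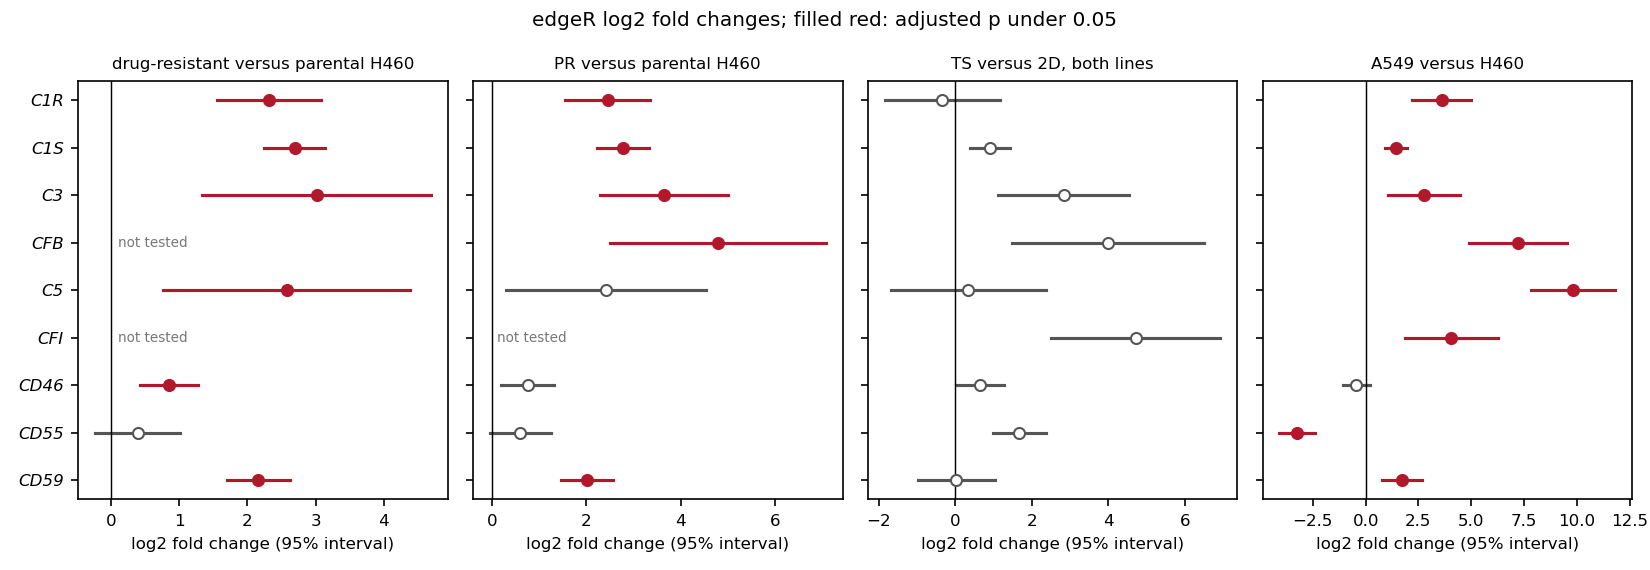
Log2 fold changes of the 9 genes by edgeR (x axis, with 95% intervals as horizontal lines) in 4 comparisons, 1 per panel; filled red points have an adjusted p under 0.05. In drug-resistant cells C1R, C1S, C3, CD46 and CD59 were called higher, as were 18.5% of all genes tested. C5 is red there too, but passed the filter on low counts only through the drug-resistant libraries. No member was called in TS against 2D cells, and CD55 was the only member called lower in A549 than in H460.

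Several leukocyte markers moved with the drug-resistant group. Summed over 6 markers, the level was 17.9 to 26.4 FPKM in parental and 42.4 to 72.5 FPKM in drug-resistant libraries. Only CD68 and CD14 had an FPKM of at least 1 there, while the pan-leukocyte marker PTPRC was at most 0.157 FPKM. The fibroblast markers summed to 14.7 to 30.9 FPKM in parental and 7.99 to 19.8 FPKM in drug-resistant libraries, but COL1A1 was higher in all drug-resistant libraries (0.783 to 6.51 against 0.0848 to 0.193 FPKM) and COL3A1 lower (2.50 to 7.22 against 13.6 to 26.5 FPKM). The part of these markers in the complement differences was not tested.

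Of the 46 other complement genes in the wider list, 19 could be tested in drug-resistant against parental cells, of which 7 rose and 1 fell, where 18.5% of all genes rose. SUSD4, ITGAM and C8G, which had under 10 reads on average in parental cells, passed the filter only through the drug-resistant libraries, and of the 16 others 4 rose and 1 fell. Vitronectin (VTN), a plasma and matrix protein that inhibits the terminal complex, was at 6.76, 5.00 and 9.36 FPKM in parental cells. It reached 33.9 FPKM in CR, 28.9 and 48.5 FPKM in PR and 81.2 FPKM in DR cells, a log2 fold change of 2.65 (SE 0.406, adjusted p = 0.00116). C1QBP, a mitochondrial protein that can bind C1q, fell from 448, 434 and 242 FPKM to 140, 157, 131 and 182 FPKM in the CR, PR and DR libraries. Its log2 fold change was -1.39 (SE 0.237, adjusted p = 0.00197). C8G, a chain of the terminal component C8, rose by 3.13 on the log2 scale (SE 0.538, adjusted p = 0.00205) but stayed below 1 FPKM. SUSD4, a membrane-bound complement inhibitor, had 0 reads in the parental libraries and 10 to 43 in the drug-resistant ones, at least 8.65-fold higher (adjusted p = 0.00226). Clusterin, ITGAM, COLEC10 and C2 were the other genes that rose. The recognition chains C1QA, C1QB and C1QC were listed at 0 in all 10 libraries.

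PR cells were the only drug-resistant cells with replicates, and these libraries are also part of the comparison of all drugs. Against parental cells, 3391 of 19430 genes were called higher (17.5%), among them C3, C1R, C1S and CD59 of the 6 members with at least 10 reads on average in both groups. CFB was also called, but passed the filter only through the PR libraries. C3 rose by 3.65 on the log2 scale (SE 0.602, adjusted p = 0.00412), C1S by 2.78 (SE 0.243, adjusted p = 0.000593), C1R by 2.46 (SE 0.401, adjusted p = 0.00398) and CD59 by 2.01 (SE 0.249, adjusted p = 0.00178). CFB gave 66 reads in both PR libraries together against 3 in the parental libraries, a ratio of 35.1 with an exact counting interval of 11.5 to 174, and an adjusted p of 0.00878. That call was lost without PR replicate 1 (adjusted p = 0.0602) or PR replicate 2 (adjusted p = 0.161). CD46 had a log2 fold change of 0.75 with an adjusted p of 0.0514, which fell under the threshold with other scaling factors (0.0438 and 0.016), with DESeq2 (0.0124) and with a filter on FPKM (0.0269). CD55 (0.60, adjusted p = 0.146) and C5 (2.42, adjusted p = 0.0831) did not pass, although C5 did without parental replicate 1 (adjusted p = 0.0392).

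Of 21 other complement genes tested in PR cells, 9 rose and 1, C1QBP, fell, where 17.5% of all genes rose. ITGAM, ITGAX, MASP2, SUSD4 and C8G passed the filter only through the PR libraries, and of the 16 others 4 rose and 1 fell. The integrin chains ITGAM and ITGAX, which pair with ITGB2 as receptors for C3 fragments, had 0 reads in the parental libraries. They had 82 and 125 reads (ITGAM) and 57 and 44 reads (ITGAX) in the PR libraries, at least 37.8-fold and 17.8-fold higher (adjusted p = 0.00187 and 0.00265). The partner ITGB2 stayed near 0, with 10 and 18 reads in the PR libraries against 7, 6 and 18 in parental replicates 1, 2 and 3. MASP2, the protease of the lectin pathway that cleaves C4 and C2, had 50 and 65 reads in the PR libraries and 0 in every other library, at least 20.8-fold higher than in parental cells (adjusted p = 0.0026). All of these stayed below 1 FPKM. C8G rose as well (adjusted p = 0.00282).

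Whether the drugs differed was tested by PR cells against CR and DR cells as 1 group. The edgeR test called 0 of 19770 genes (0.0%), and 2479 had an unadjusted p under 0.05, while DESeq2 called 420 and limma on log2(FPKM + 1) called 101. Of the 8 members tested, 0 were called by edgeR or DESeq2, and limma called 0 of the 6 it tested. The 2 with an unadjusted p under 0.05 in edgeR were C3 and CFB. C3 was higher in PR cells by 1.90 on the log2 scale (SE 0.73, 95% interval 0.26 to 3.54, adjusted p = 0.331), and it passed the threshold only without a filter on low counts (adjusted p = 0.014). For CFB the difference was 2.22 (95% interval 0.06 to 4.37, adjusted p = 0.381). The difference was 0.23 for C1S (95% interval -0.29 to 0.75) and -0.23 for CD59 (95% interval -0.77 to 0.31), so these data could still hold differences of up to 0.77 on the log2 scale for these genes. Of 22 other complement genes, edgeR called 0 with 7 at an unadjusted p under 0.05, DESeq2 called 2 and limma 0 of the 8 it tested.

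Taken drug by drug without a test, more than 2-fold on the log2(FPKM + 1) scale from the parental mean, CR cells had 3 members higher (C1R, C1S and CD59), against 5.13% of the 14410 genes that reached an FPKM of 1 in any library. The PR mean had 4 members higher (these and C3), against 7.02% of genes, and DR cells the same 4, against 5.06%. No member was more than 2-fold lower in any drug.

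In TS against 2D cells of both lines, no complement gene passed the edgeR test, which called only 35 of 18372 genes (0.191%) with 1 TS library a line. Of the 9 members, 6 had an unadjusted p under 0.05 in edgeR, as had 7.42% of all genes. The 9 include C5, CFB and CFI, which had few reads in H460 and passed the filter mainly through A549. The count of 6 therefore describes the fit and not the members. DESeq2 called C3, C1S and CD55 higher in TS cells, where 1.69% of all genes were, and limma called 0 of the 7 members it tested. CFB and CFI were also called higher by DESeq2 but passed the filter mainly through A549, with at most 4 and 23 reads in the H460 libraries of that fit. Of the members called by DESeq2, CD55 had the smallest adjusted p, with a log2 fold change of 1.67 (SE 0.292, 95% interval 0.98 to 2.36, adjusted p = 0.105 in edgeR and 6.99e-05 in DESeq2). It stood at 498 FPKM in H460 TS cells against 104 to 187 FPKM in the parental libraries, and at 40.3 FPKM in A549 TS against 16.8 FPKM in A549 2D cells. Both TS values were above all 2D values of their line. Without the A549 2D or the A549 TS library, when only the H460 difference remained, its adjusted p was 0.0448 and 0.0401.

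C3 also stood higher in TS cells of both lines, at 19.3 FPKM in H460 TS cells and 44.0 FPKM in A549 TS against 18.8 FPKM in A549 2D cells. The H460 value was above all parental values, and the joint log2 fold change was 2.83 (SE 0.724, adjusted p = 0.267 in edgeR and 0.0188 in DESeq2). Without the A549 2D or the A549 TS library the log2 fold change of C3 was 3.67, with an adjusted p of 0.0404 and 0.0338, and without the H460 TS library it was 1.27, with an adjusted p of 0.856. C1S was at 14.0 FPKM in H460 TS cells and at 31.0 FPKM in A549 TS against 21.0 FPKM in A549 2D cells, a log2 fold change of 0.90 (SE 0.224, adjusted p = 0.247 in edgeR and 0.00827 in DESeq2). CFI had 23 reads in H460 TS cells, where the parental libraries had 0, and 166 against 16 in A549 TS and 2D cells (adjusted p = 0.144 in edgeR and 0.0114 in DESeq2). Without the A549 2D library, when only the H460 difference remained, the CFI log2 fold change of 7.69 rested on these 23 reads.

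C1R and CD59 were below the parental libraries in H460 TS cells but higher in A549 TS than in A549 2D cells. C1R was at 0.698 FPKM in H460 TS cells, below every parental library, and at 19.5 FPKM in A549 TS against 11.5 FPKM in A549 2D cells. CD59 was at 7.89 FPKM in H460 TS cells and 50.5 against 26.3 FPKM in A549. CFB was near 0 in H460 TS cells, with 4 reads, and at 8.33 FPKM in A549 TS against 0.294 FPKM in A549 2D cells, a ratio of 28.2 between these libraries with a counting interval of 21.5 to 37.5. CD46 was above its 2D libraries in both lines, at 86.3 FPKM in H460 TS cells and at 82.9 against 41.5 FPKM in A549, and C5 had 5 reads in H460 TS cells and 24.5 against 13.9 FPKM in A549.

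The difference between the spheroid effects of the lines was tested as an interaction. It was called for 87 of 19941 genes (0.436%) by edgeR and for 0 of the 9 members, of which 3 had an unadjusted p under 0.05. DESeq2 also called 0 members, and limma 0 of the 7 it tested. C1R had an interaction of 2.05 on the log2 scale (95% interval 0.07 to 4.04, adjusted p = 0.587), CD59 of 1.69 (95% interval 0.40 to 2.98, adjusted p = 0.376) and CFI of -4.38 (95% interval -8.49 to -0.26, adjusted p = 0.56), the last on few reads. Over all genes, 1628 had an unadjusted p under 0.05. In the joint fit 21 other complement genes were tested in TS against 2D cells, of which edgeR and DESeq2 called 0, and 3 had an unadjusted p under 0.05 in edgeR. There limma called 0 of the 7 other complement genes it tested.

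Counted without a test, H460 TS cells had 2 members more than 2-fold higher, C3 and CD55, against 1.66% of genes, and 0 more than 2-fold lower, against 1.69% of genes. In A549 TS cells C3 and CD55 were more than 2-fold higher, against 5.86% of genes. CFB was too, but CFB and CFI were among the genes compared only because they reached an FPKM of 1 in this library. All 9 members had a positive difference in A549 TS cells, as did 44.5% of all genes. The median was 0.91 over the members and -0.04 over all genes on the log2(FPKM + 1) scale. CFB and CFI are included, so these values describe the A549 TS library and not the members. Hepatocyte markers moved with this library, with a sum over 5 markers of 206 FPKM in A549 TS and 9.63 FPKM in A549 2D cells, mainly SERPINA1 (181 FPKM) and FGB (23.4 FPKM) in TS cells, while ALB and APOA1 were listed at 0. LYZ, a lysozyme expressed by myeloid and secretory epithelial cells, was at 37.7 FPKM there and at 0 in A549 2D cells. CD68 was at 69.8 against 19.6 FPKM, CD14 at 10.1 against 2.37 FPKM and the sum of the 6 leukocyte markers at 118 against 21.9 FPKM, while PTPRC was at 0.00459 FPKM in A549 TS cells. The part of these genes in the complement differences was not tested.

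**Figure D3:**
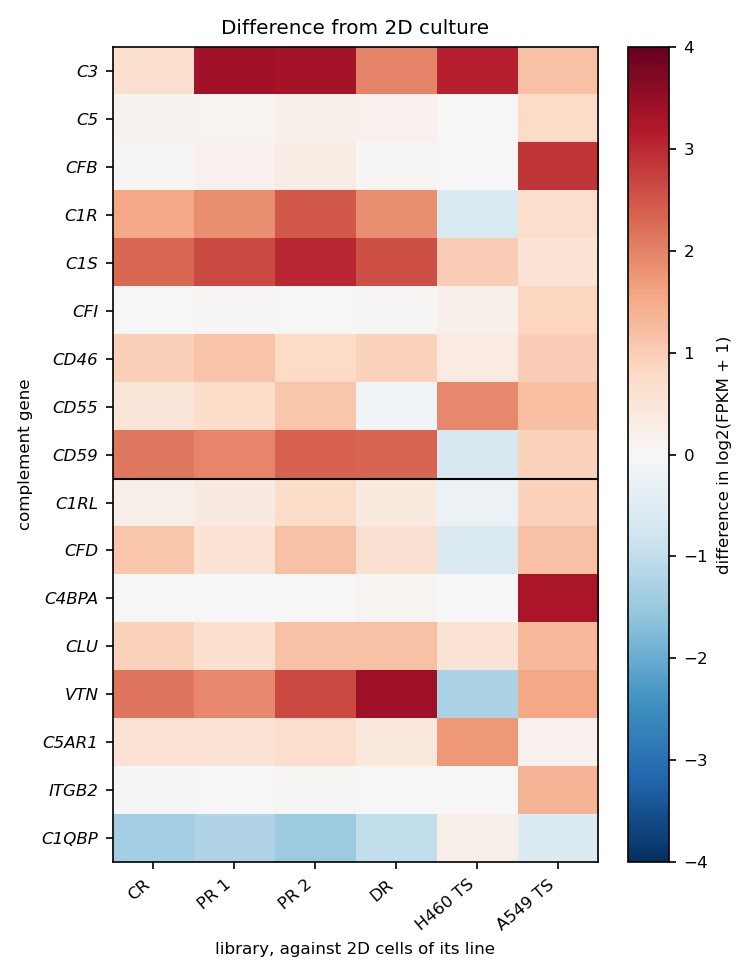
Differences in log2(FPKM + 1) of complement genes (rows, the 9 members above the line and others of the wider list below it) between each drug-resistant or TS library (columns) and the 2D cells of its line, the mean of 3 parental libraries for H460. Red is higher and blue lower, with the scale limited to 4 in either direction. C1S and CD59 were red in all 4 drug-resistant libraries, and CFB stood out in A549 TS cells only.

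**Figure D4:**
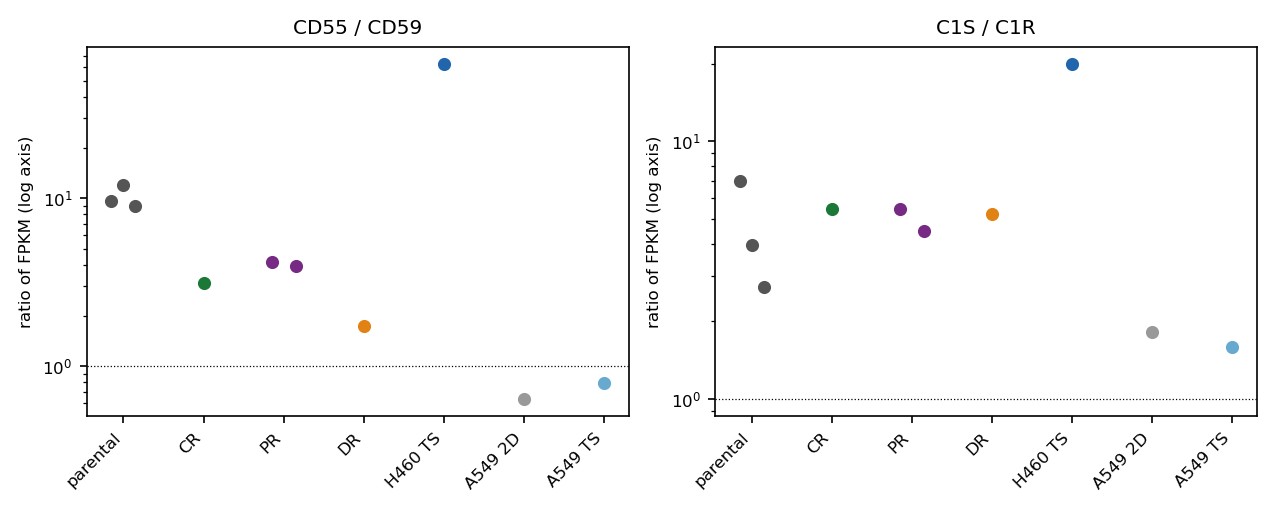
Ratios of FPKM between CD55 and CD59 (left) and between C1S and C1R (right) in each library, on log axes, with 1 point a library and a dotted line at a ratio of 1. CD55 exceeded CD59 in every H460 library, from 1.73 in DR to 63.1 in TS cells, and was below it in both A549 libraries.

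Most of the 9 genes also differed between the cell lines, with CD55 higher in H460 and C5 far higher in A549. In the same fit, edgeR called 2653 of 18372 genes higher in A549 than in H460 (14.4%) and 1731 lower (9.42%). Of the 6 members with at least 10 reads on average in both lines, 4 (C1R, C1S, C3 and CD59) were called higher in A549, CD55 was called lower and CD46 did not pass. C5, CFB and CFI were also called higher, but passed the filter mainly through A549. CD55 stood at 16.8 and 40.3 FPKM in A549 2D and TS cells, both below every H460 library of that fit, with a log2 fold change of -3.24 (SE 0.359, adjusted p = 0.00154). This call and that of C1R were kept whichever library was left out. Those of C5 and CFB were kept too, which says little about genes that passed the filter mainly through A549.

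C5, the component from which the membrane attack complex starts, showed the widest contrast between lines. It had 5699 and 10847 reads in A549 2D and TS cells, or 13.9 and 24.5 FPKM, and at most 19 reads in any H460 library of the fit. Summed over libraries and scaled to depth, the ratio was 1026 with a counting interval of 730 to 1491, and the edgeR log2 fold change was 9.82 (SE 0.845, adjusted p = 0.00066). CFB rose by 7.22 on the log2 scale (SE 0.988, adjusted p = 0.00337), mostly in the TS library. C1R was 3.60 higher (SE 0.596, adjusted p = 0.00696), with 11.5 FPKM in A549 2D cells against at most 2.50 FPKM in parental H460 cells.

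C1S was higher in A549 by 1.45 (SE 0.221, adjusted p = 0.00507), C3 by 2.76 (SE 0.723, adjusted p = 0.0339), CD59 by 1.72 (SE 0.408, adjusted p = 0.0241) and CFI by 4.06 (SE 0.941, adjusted p = 0.0226) on the log2 scale. Without the A549 2D library the adjusted p was 0.115 for C1S, 0.467 for C3 and 0.159 for CFI. The C3 call was also lost without parental replicate 1 (0.053) or 3 (0.0992), that of CFI without parental replicate 2 (0.0634) or 3 (0.0525). CD59 was not called without parental replicate 1 (0.056) or 3 (0.0526), without the H460 TS library (0.0771) or without the A549 TS library (0.071). CD46 had a log2 fold change of -0.44 (SE 0.27, 95% interval -1.08 to 0.20, adjusted p = 0.28).

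These differences turned the order of the membrane regulators around. In A549 2D cells CD46 (41.5 FPKM) was above CD59 (26.3 FPKM), and CD55 (16.8 FPKM) was below C1S (21.0 FPKM) and C3 (18.8 FPKM). The ratio of CD55 to CD59 was 0.637 and 0.798 in A549 2D and TS cells, whereas it was 1.73 or more in every H460 library and 63.1 in H460 TS cells. Taken without a test, C1R, C1S and C3 were more than 2-fold above the parental mean in A549 2D cells, against 10.1% of genes. CD55 was more than 2-fold below it, against 7.02% of genes. C5 was also more than 2-fold above, but it was among the genes compared only through A549, where alone it reached an FPKM of 1.

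Among the other complement genes, 21 were tested between the lines, of which 6 were higher in A549 and 1 lower, where 14.4% and 9.42% of all genes were. C4BPA, C4BPB, ITGAM, ITGAX and COLEC10, which are among these 7, had under 10 reads on average in one of the lines, and of the 14 genes with at least 10 in both, 2 were higher and 0 lower. C4BPA, the alpha chain of the fluid-phase inhibitor C4b-binding protein, had 30 and 1874 reads in A549 2D and TS cells and 0 in the H460 libraries of that fit, at least 311-fold higher over the libraries (adjusted p = 0.00346). That bound rested on the TS library, and A549 2D cells alone were at least 11.0-fold above parental cells. C1RL, a C1r-like protease, was at 6.37 and 13.1 FPKM in A549 against at most 1.10 FPKM in those H460 libraries, a log2 fold change of 3.78 (SE 0.594, adjusted p = 0.00573). ITGAX was at least 40.3-fold higher (adjusted p = 0.00856). COLEC10, a collectin of the lectin pathway, was the gene called lower, with 0 reads in A549 against 72 in H460 (adjusted p = 0.015).

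The members with the widest range over the 10 libraries were C3, CD55 and C5, at 4.96, 4.81 and 4.67 on the log2(FPKM + 1) scale, and CFI and CD46 had the smallest, at 1.00 and 1.84. Among 13439 genes that reached an FPKM of 1 in 2 or more libraries, the profile nearest to that of C3 by Euclidean distance over the 10 libraries was SQOR (distance 2.26), followed by PTGS2 (2.43), TRIB1 (2.80), CEMIP2 (2.88) and CALB2 (2.90). SPP1 was the nearest to CD55 (1.61), and those close after it included LOC107986820 (1.72), ARTN (1.8) and SLC7A2 (1.8). C5, which was high only in A549, had much closer neighbours, ARSL (0.463), DSP (0.494), MEST (0.509), MYRF (0.518) and NLRP2 (0.536). These distances describe 10 libraries that share cell lines, and no test was made of them.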

How the data were processed

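The deposited table held, for each of 46427 genes and each of the 10 libraries, read counts as whole numbers, FPKM and TPM. Per the labels, the processing notes name Trimmomatic, HISAT2 2.1.0, StringTie 2.1.3b and bcl2fastq 1.8.4, and the build GRCh38, with no role or order. The counts deposited by the authors were used without change, although they may be estimates and reads shared by similar genes, such as C4A and C4B, may have been split between them. FPKM were made by the authors by scaling to transcript length and library size, and TPM by the authors on the same basis with equal totals, which were not used for tests.

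Counts were tested with edgeR 4.0.16 (quasi-likelihood, TMM factors, filterByExpr with a minimum count of 10, Benjamini-Hochberg adjustment over all genes tested, threshold 0.05) in R 4.3.3. Tests were made of drug-resistant (4) against parental (3) cells, of PR against parental, of PR against CR and DR, and, in 6 libraries, of TS against 2D and A549 against H460 jointly, then with an interaction. The comparisons with parental cells share the parental libraries, so that they are not independent. Single libraries were described as log2(FPKM + 1) against the mean of the 2D libraries, more than 2-fold apart, which understates low genes. Counting intervals (95%, exact) and lower bounds (3 reads in each library at 0) cover counting error only. Replicates differed beyond sampling noise (chi-square per gene of 89.6 to 369).

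Alternatives were RLE and upper-quartile factors, DESeq2 1.42.0, no filter, a filter that asked for an FPKM of 1 in 2 or more libraries, limma 3.58.1 on log2(FPKM + 1) and log2(FPKM + 0.1), each library left out, the name form as a covariate, each drug with its own mean, and a replicate block. Named were all 9 members, up to 4 other complement genes a comparison with the smallest adjusted p, and the 5 nearest profiles of the 3 members with the widest range. Clusterin, COLEC10, ITGAM and C2 in drug-resistant cells, and genes at 0 or in marker lists, were named after their values were seen. The members, the wider list of 55 complement genes and the tests were chosen with earlier results of these data known. Results of some genes that these rules name are not reported here. The fits of drug-resistant against parental, PR against parental and TS against 2D cells were also run on simulated data. The other comparisons were not.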

Additional observations from a re-analysis of the deposited data

Results flagged for a closer look

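Among the members, 2 moved in opposite directions in the spheroids of the cell lines. C1R was below every parental library in H460 TS cells and higher in A549 TS than in A549 2D cells, with an interaction of 2.051 on the log2 scale (edgeR, adjusted p = 0.587). CD59 did the same, with an interaction of 1.689 (adjusted p = 0.376). Neither difference passed the test of the interaction, with 1 TS library a line.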

How the results depend on the processing

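C1R, C1S, CD46 and CD59 kept their direction and passed the threshold in drug-resistant against parental cells under all 16 alternatives, CD55 under none. With upper-quartile factors the median over all genes in that comparison was 0.23 (log2) and the calls split into 4210 higher and 2032 lower. With the name form as a covariate, 4948 of 19770 genes and 5 of 8 members tested were called. Leaving out 1 library gave 4215 to 6585 genes and 4 to 7 members. These member counts can include C5 and CFB, which were low in parental cells, so they describe the settings and not the members.

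For PR against parental cells, 5455 genes were called, 2742 with the FPKM filter, 3026 and 2773 with limma at pseudocounts of 1 and 0.1, and 950 to 6661 without 1 library, the lowest without PR replicate 2. Replicate numbers 1 and 2 are shared by PR and parental libraries, whose deviations had a correlation of 0.155 over 13439 genes, and libraries of the same number also share the name form, which the labels do not call a batch. A fit of these 4 libraries with the replicate block called 6775 of 19179 genes and 5 of 8 members tested, against 6661 and 5 without the block. CFB, which was low in parental cells, was among the members called in both fits.

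PR against CR and DR gave 420 calls with DESeq2, 509 (1 member) with no filter, 101 and 15 with limma, and 0 to 66 without 1 library, the highest without parental replicate 1. CD46 turned positive, at 0.024, with either limma fit and C5, at 0.461, with the name form, and without 1 library CD46 ranged from -0.383 to 0.041 and C5 from -0.589 to 0.032, the highest values without PR replicate 2 and PR replicate 1.

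TS against 2D cells gave 537 calls (5 members) with DESeq2, 19 with the FPKM filter, 19 with limma at 0.1, and 6 to 322 (0 to 3 members) without 1 library, the lowest without parental replicate 2 and the highest without the A549 TS library. In the same comparison CD59 turned to -0.009 with upper-quartile factors, to -0.017 and -0.042 with limma, and C5 to -0.026 with DESeq2. Without 1 library CD59 ranged from -0.7 to 0.984 and C5 from -0.703 to 0.859, both negative without either A549 library, and C1R from -1.246 to 0.8, positive without the H460 TS library. A fit without 1 A549 library rests on H460 alone and takes the lone TS library to vary like the parental ones. The 5 members called by DESeq2 included CFB and CFI, which had few reads in H460.

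A549 against H460 gave 2843 calls with the FPKM filter and 2359 to 3905 (5 to 7 members) without 1 library. The interaction gave 539 calls with DESeq2, 0 with no filter, 27 and 13 with limma and 116 to 656 without 1 parental library, and that of CFB ranged from -0.322 without parental replicate 2 to 3.359 without parental replicate 1. Counts of members more than 2-fold apart, in either direction, were 5 in H460 TS cells and 8 in A549 2D cells with a pseudocount of 0.1, and 5 in A549 TS cells with upper-quartile scaling. The share of all genes past 2-fold was not computed at these settings, so these counts describe the settings and not the members. The cause of these shifts was not tested. CFB, C5 and CFI had few or no reads in H460 yet enter the member counts of the A549 comparison, and most groups had 1 library.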
